A study of Saccharomyces cerevisiae with 4 samples.

Results

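The 10 genes described here encode the enzymes of lower glycolysis in the budding yeast Saccharomyces cerevisiae, from triose phosphate isomerase to pyruvate kinase. They were chosen by gene identifier, not by a rule on measured values, though with earlier results of these data known. The genes are TPI1, TDH1, TDH2, TDH3, PGK1, GPM1, ENO1, ENO2, CDC19 and PYK2, 10 of the 7126 features that the deposited gene counts list. Polyadenylated RNA was sequenced from a strain labelled wild type (n = 2 libraries) and from a strain with the alleles xpo1-1 and mex67-5 (n = 2 libraries), and the stated aim of the study was a comparison of splicing. Both groups were grown overnight at 25 °C and shifted to 37 °C for 1 h before harvest, so no library shows either strain without the shift. Xpo1, encoded by CRM1, and Mex67 are nuclear export receptors, and both alleles are known as temperature-sensitive. The labels give neither the strain background nor the cultures behind each library, so every difference is one between these 2 strains and the p-values measure a spread between libraries that may be technical.

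Lower glycolysis turns triose phosphates into pyruvate and returns the ATP spent in the upper part of the pathway. In yeast growing on glucose its enzymes are among the most abundant proteins of the cell, and their genes are driven by the transcription factors Rap1, Gcr1 and Gcr2, with Tye7 as a further activator. Several steps have isoenzymes, in which one gene usually carries most of the expression during growth on glucose (TDH3, ENO2, CDC19) and another is used more at other times (TDH1 as growth slows, ENO1 and PYK2 where glucose is low).

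Isoenzyme genes can be compared only as far as reads tell them apart, so their coding sequences are shown first. All 10 genes have a single coding exon, none has a record in the intron counts, and no other gene of the RefSeq annotation (build R64) overlaps one. The first 60 coding bases of the TDH genes, 5′ to 3′ on the coding strand, are given here with capitals where TDH1 or TDH2 differs from TDH3. They lie at chrVII:883751-883810 (TDH3, minus strand), chrX:454622-454681 (TDH2, minus strand) and chrX:338271-338330 (TDH1, plus strand).
TDH3: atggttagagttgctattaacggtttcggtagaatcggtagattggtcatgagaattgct
TDH2: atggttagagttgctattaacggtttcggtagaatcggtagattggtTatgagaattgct
TDH1: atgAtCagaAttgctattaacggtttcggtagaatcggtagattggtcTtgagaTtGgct

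In this stretch TDH2 differs from TDH3 at 1 base and TDH1 at 6, and the same stretch of ENO1 and ENO2 is identical. Over the whole coding sequence of 999 bases, TDH2 and TDH3 are 95.8% identical, with an identical run of 173 bases, and TDH1 is 88.9% identical to TDH3. ENO1 and ENO2, of 1314 bases each, are 94.8% identical. PYK2 and CDC19 are 67.4% identical, with no identical run longer than 14 bases. Of all windows of 50 bases, the read length, 68.7% of TDH2, 75.6% of TDH3, 84.3% of TDH1 and 76.4% of both ENO genes occur once in the genome, against 100% of the other 5 genes. The sources used here do not give the treatment of reads with several places. TDH3 shares 24.4% of its windows with TDH2, while TDH2 had only 1.77% and 1.96% as many reads as TDH3 in the 2 mutant libraries. With even coverage, shared reads counted at every copy would have given TDH2 more than that.

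Reads assigned to genes came to 49865570 and 49321384 in the wild-type libraries, against 62205252 and 50843634 in those of the mutant. Levels are given as reads per 1000000 of the scaled library size (CPM). The genes are put in order of level only after division by coding length in kb. Shares of reads and sums over isoenzymes are not divided by length. MEX67 was read at 152 and 156 CPM in the wild type against 1903 and 1947 CPM in the mutant, and CRM1 at 217 and 220.4 CPM against 187 and 190.0 CPM, which does not test the alleles, since both are transcribed. A gene was called where its adjusted p from edgeR's quasi-likelihood test (Benjamini-Hochberg over 6563 genes) was under 0.05. So many genes were called, 93.1% of those tested (46.8% higher and 46.3% lower), that the size of a change says more than the call.

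Lower glycolysis mRNA was less abundant in the mutant, but unevenly so. All 10 members passed the filter on low counts; 8 were called lower, 2 (PGK1 and PYK2) were not called and 0 were higher. The median log2 change of the 10 was -2.02, against 0.01 over all genes tested. Of the members, 6 fell by at least 1 on the log2 scale, a size reached by 25.5% of all genes tested, and 5 fell by at least 2, which 10.8% of all genes did. Values of the groups were fully apart in 8 members, where 96.4% of all genes tested were apart. These are shares of the messenger RNA in a culture, so fewer cells with a transcript and fewer transcripts per cell cannot be told apart, and a change in total messenger RNA would not be seen.

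**Figure D1:**
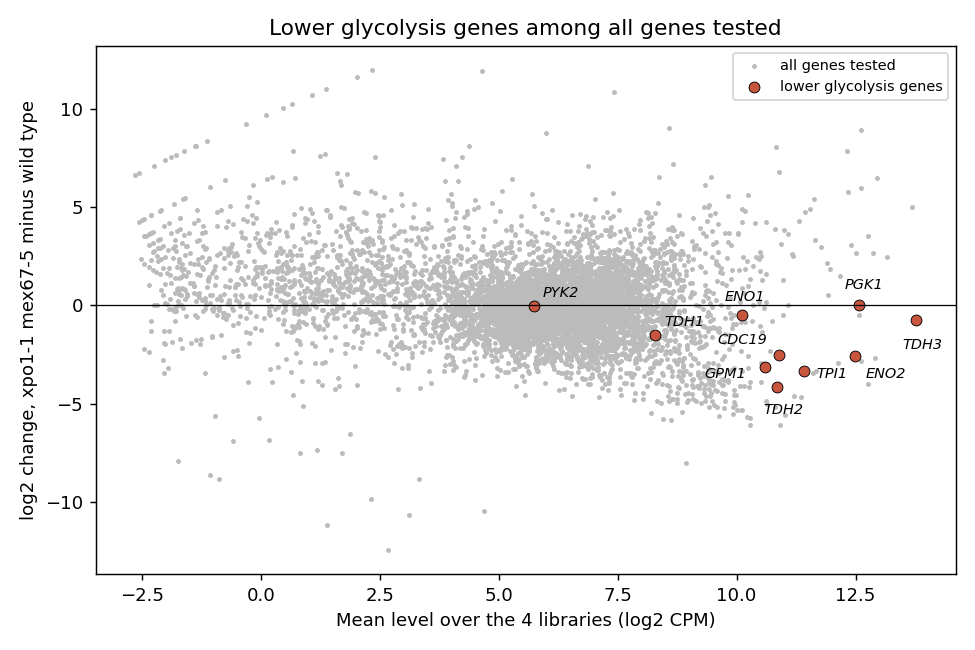
Mean level over the 4 libraries in log2 CPM (horizontal) against the log2 change, mutant minus wild type (vertical), for all genes tested (grey) and the 10 lower glycolysis genes (red). The changes of the 10 genes run from -4.17 in TDH2 to 0.01 in PGK1.

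The first enzyme of lower glycolysis, triose phosphate isomerase, interconverts both triose phosphates. Its gene TPI1 (YDR050C, chromosome IV, 555726 to 556472) was read at 4991 and 4945 CPM in the wild type and at 479 and 492 CPM in the mutant. The groups were far apart: TPI1 was 10.2-fold lower in the mutant, a log2 change of -3.36 (SE 0.05, edgeR quasi-likelihood adjusted p = 3.2e-20). Only 3.37% of all genes tested had a lower log2 change.

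Glyceraldehyde-3-phosphate dehydrogenase, the oxidizing step, is encoded by 3 genes that went down to very different degrees. TDH3 (YGR192C, chromosome VII, 882812 to 883810), the main form, had 17605 and 17626 CPM in the wild type and 10350.1 and 10684 CPM in the mutant. The groups did not overlap, and TDH3 fell 1.67-fold (log2 -0.74, SE 0.05, edgeR quasi-likelihood adjusted p = 1.8e-10). TDH2 (YJR009C, chromosome X, 453683 to 454681), whose coding sequence is the closest to that of TDH3, went from 3517 and 3532 CPM to 183 and 209 CPM. This was the largest fall of the 10 genes, 18.0-fold (log2 -4.17, SE 0.06, edgeR quasi-likelihood adjusted p = 1.6e-19). TDH1 (YJL052W, chromosome X, 338271 to 339269), the form linked to slow growth and stress, stood at 478 and 451 CPM in the wild type and 154 and 170.0 CPM in the mutant. Its fall of 2.87-fold (log2 -1.52, SE 0.05, edgeR quasi-likelihood adjusted p = 6.5e-15) lay between those of the other two.

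Phosphoglycerate kinase makes the first ATP of the pathway and comes from a single gene, PGK1 (YCR012W, chromosome III, 137746 to 138996). It was read at 6011 and 6106 CPM in the wild type and at 5990.5 and 6246 CPM in the mutant. The mutant libraries lay on either side of the wild-type ones. The log2 change was 0.01 (SE 0.05, edgeR quasi-likelihood adjusted p = 0.771), with a 95% interval of 0.943-fold to 1.08-fold. PGK1 stands beside 5 genes of the pathway that fell by 5.75-fold to 18.0-fold (TPI1, TDH2, GPM1, ENO2 and CDC19), and its change differed from that of TDH3 by 0.76 on the log2 scale (SE 0.04, limma adjusted p = 3.4e-05).

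Phosphoglycerate mutase, the next enzyme, is encoded by GPM1 (YKL152C, chromosome XI, 163642 to 164385). Its level went from 2807 and 2794 CPM to 309 and 322 CPM. GPM1 was 8.88-fold lower (log2 -3.15, SE 0.04, edgeR quasi-likelihood adjusted p = 3.5e-20), with no overlap between the groups. The reading frames GPM2 and GPM3, related to GPM1 in sequence but without a shown role in glycolysis, went the other way from low levels: GPM2 had 65.3 and 66.1 CPM in the wild type against 149 and 142 CPM in the mutant, and GPM3 had 67.7 and 63.9 against 106 and 106 CPM. Both were called higher (log2 1.15 and 0.69, SE 0.04 each, edgeR quasi-likelihood adjusted p at most 1.1e-11).

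Enolase removes water from 2-phosphoglycerate and has a glucose-induced form, ENO2, and a form that depends less on glucose, ENO1. ENO2 (YHR174W, chromosome VIII, 451327 to 452640) was read at 9710.4 and 10001 CPM in the wild type and at 1570.1 and 1679 CPM in the mutant, 6.07-fold lower (log2 -2.60, SE 0.05, edgeR quasi-likelihood adjusted p = 3.6e-18). ENO1 (YGR254W, chromosome VII, 1000927 to 1002240) went only from 1296 and 1317 CPM to 851 and 994 CPM. Both mutant libraries were below both wild-type ones, and the fall was 1.42-fold (log2 -0.50, SE 0.06, edgeR quasi-likelihood adjusted p = 4.7e-05). In relative terms the mutant libraries differed from each other more in ENO1 than in any other of the 10 genes, and without mutant replicate 1 or 2 its log2 change was -0.40 or -0.62. The enolase-related frames ERR1, ERR2 and ERR3 had at most 7 reads in any library and were not tested.

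Pyruvate kinase closes the pathway with the second ATP-making step. CDC19 (YAL038W, chromosome I, 71786 to 73288), the essential form, was read at 3179 and 3305 CPM in the wild type and at 546 and 582 CPM in the mutant, 5.75-fold lower (log2 -2.52, SE 0.05, edgeR quasi-likelihood adjusted p = 1.4e-18). PYK2 (YOR347C, chromosome XV, 984942 to 986462), the weakly expressed form, stood at 54.1 and 53.5 CPM against 53.8 and 51.9 CPM. Its groups overlapped, and the log2 change was -0.03 (SE 0.04, edgeR quasi-likelihood adjusted p = 0.558), with a 95% interval of 0.925-fold to 1.04-fold.

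**Figure D2:**
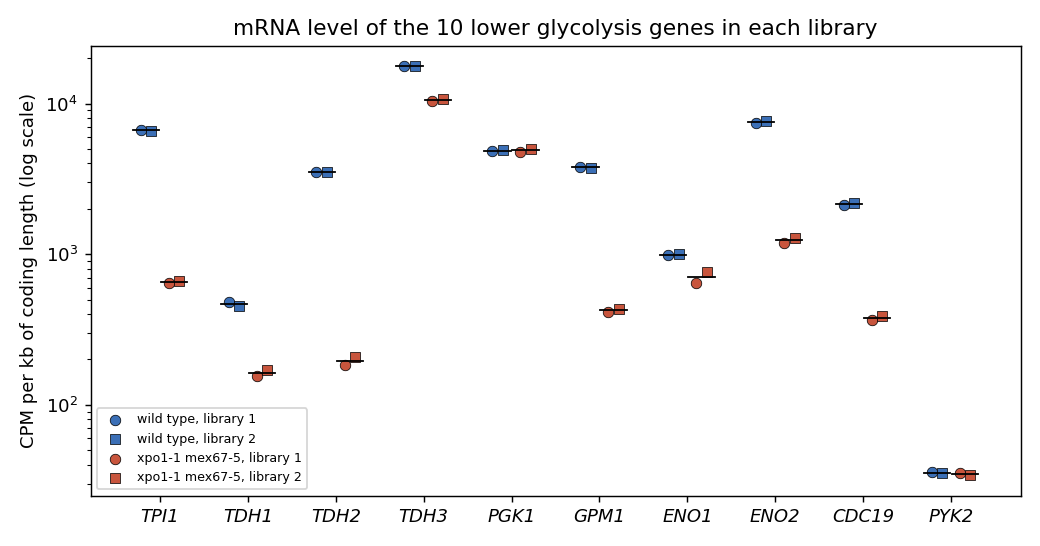
Level of each gene in each library, in CPM per kb of coding length on a log scale; circles and squares are libraries 1 and 2 of each group and the horizontal lines their means (n = 2). PGK1 and PYK2 overlap between the groups, and the other 8 genes are lower in both mutant libraries.

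Per kb of coding length, the order of the genes also differed between the strains. In the wild type TDH3 led at 17633 ± 14.99 CPM per kb (SD, n = 2), followed by ENO2 at 7501 ± 156, TPI1 at 6650.5 ± 43.7, PGK1 at 4843 ± 53.4, GPM1 at 3764 ± 12.3, TDH2 at 3528 ± 10.2, CDC19 at 2157 ± 59.1, ENO1 at 994 ± 11.4, TDH1 at 465 ± 19.0 and PYK2 at 35.4 ± 0.281. No neighbours in this order overlapped. In the mutant TDH3 still led at 10528 ± 236 CPM per kb, with PGK1 second at 4891 ± 145, ahead of ENO2 at 1236 ± 58.7. ENO1 at 702 ± 77.3 and TPI1 at 649.9 ± 12.9 overlapped, and GPM1 at 424 ± 12.3, CDC19 at 375 ± 16.7, TDH2 at 196 ± 18.3, TDH1 at 162 ± 11.2 and PYK2 at 34.7 ± 0.870 followed without overlap. Levels of the TDH and ENO genes per kb may be too low by the reads that fit several places. Their places in both orders may then be too low as well, which the lack of overlap between neighbours does not settle.

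Together the 10 genes took 4.94% and 5.01% of all reads assigned to genes in the wild-type libraries and 2.07% and 2.13% in the mutant libraries, 2.36-fold less. Within that sum, TDH3 and PGK1 made up 47.6% and 47.3% in the wild-type libraries, compared with 79.8% and 79.0% in the mutant ones. The groups did not overlap in either share; with 2 libraries against 2, the two-sided exact permutation p cannot go below 0.33, which is the value here. Summed over isoenzymes, the steps changed by unlike amounts. Transcripts for the isomerase were 10.2-fold lower in the mutant, for the mutase 8.88-fold and for pyruvate kinase 5.34-fold. Those for enolase were 4.38-fold lower and those for the dehydrogenase 1.99-fold. The mean for the kinase PGK1 was 6058 CPM in the wild type and 6118 CPM in the mutant. The exact permutation test could not have put any step sum under 0.05.

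Isoenzymes of the same step differed in how much they changed. In the dehydrogenase, the main form fell least. The log2 change of TDH2 minus that of TDH3 was -3.43 (SE 0.06), and that of TDH1 minus that of TDH3 was -0.78 (SE 0.06). The log2 change of TDH1 minus that of TDH2 was 2.65 (SE 0.14). In enolase the minor form fell less than the main one, and in pyruvate kinase the main form fell while the minor form was not called. The log2 change of ENO1 minus that of ENO2 was 2.10 (SE 0.09), and that of PYK2 minus that of CDC19 was 2.5 (SE 0.09). These values compare changes and not levels: ENO2 and CDC19 kept the higher level in both groups. All 5 of these differences passed limma on within-library log2 ratios, with adjusted p-values of at most 1.4e-04 over all genes and at most 8.9e-05 over the 5 pairs. In such fits 92.5% of genes differed from TDH3, 99.0% from TDH2 and 97.5% from ENO2 and from CDC19. The spread of the reference enters every row of these fits, so the pairs were also fitted, in an alternative chosen after seeing the data, among 3281 pairs of genes with no shared reference; the adjusted limma p was then at most 3.6e-04.

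The make-up of each family followed. TDH3 supplied 81.5% and 81.6% of the dehydrogenase reads in the wild-type libraries, compared with 96.8% and 96.6% in the mutant ones. The share of TDH2 went from 16.3% in both wild-type libraries to 1.71% and 1.89%, and that of TDH1 from 2.21% and 2.09% to 1.44% and 1.54%. So the dehydrogenase transcripts of the mutant came almost wholly from one gene. ENO1 went from 11.8% and 11.6% of the enolase reads to 35.1% and 37.2%, although its own level fell. PYK2 went from 1.67% and 1.59% of the pyruvate kinase reads to 8.96% and 8.19%, at nearly the same level in CPM. For each of these shares the groups did not overlap, and the exact two-sided permutation p was 0.33, the smallest that 2 against 2 libraries allow.

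**Figure D3:**
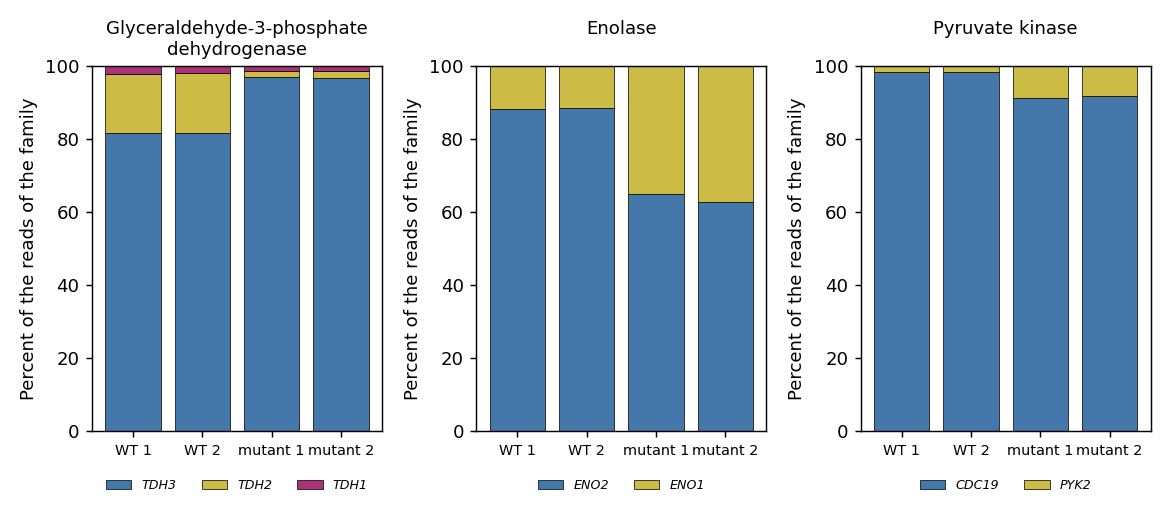
Share of each isoenzyme gene among the reads of its enzyme, in percent, for each of the 4 libraries (WT, wild type; mutant, xpo1-1 mex67-5). TDH3, ENO1 and PYK2 make up more of their families in both mutant libraries than in either wild-type one.

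The stretches upstream of the start codons were searched for sequences that the known regulators of these genes bind. The motifs below were searched on both strands in the 600 bases before each start codon of RefSeq build R64. CTTCC is a form of the core bound by Gcr1, and ACCCANACA is a form of the Rap1 site. AGGGG is the stress response element of Msn2 and Msn4, and GAA-NN-TTC-NN-GAA is a heat shock element bound by Hsf1. Other forms of these sites were not searched. Matches of different motifs overlapped 0 times in the 10 genes. CTTCC was found in 9 of 10 members (2.5 matches on average), against 72.9% of 6005 genes with such a window (1.35 on average), and AGGGG in 7 of 10 against 39.7%. ACCCANACA was found in TDH3, PGK1, GPM1 and ENO1, where 3.5% of all windows hold it, and the heat shock element in PGK1 alone of the 10, where 1.7% of all windows hold it. Windows are printed for the 2 members with the highest mutant levels, TDH3 and PGK1, and for TDH2 and GPM1, which fell strongly. The printed windows are the 150 bases with most matches, with ties settled by the middle stretch. They lie at chrVII:884234-884383 (TDH3, minus strand), chrIII:137257-137406 (PGK1, plus strand), chrX:455047-455196 (TDH2, minus strand) and chrXI:164653-164802 (GPM1, minus strand), are written 5′ to 3′ toward the gene, and carry the matches in capitals.
TDH3: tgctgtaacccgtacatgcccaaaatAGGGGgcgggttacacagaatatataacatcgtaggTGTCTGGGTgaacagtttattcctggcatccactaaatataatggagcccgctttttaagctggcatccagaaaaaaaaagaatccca
PGK1: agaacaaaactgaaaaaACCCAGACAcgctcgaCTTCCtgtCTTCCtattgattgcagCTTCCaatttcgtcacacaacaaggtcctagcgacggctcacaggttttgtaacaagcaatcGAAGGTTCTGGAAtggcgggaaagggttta
TDH2: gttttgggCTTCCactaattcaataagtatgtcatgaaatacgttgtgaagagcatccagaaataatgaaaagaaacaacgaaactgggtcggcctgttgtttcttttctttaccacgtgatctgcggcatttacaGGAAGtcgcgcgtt
GPM1: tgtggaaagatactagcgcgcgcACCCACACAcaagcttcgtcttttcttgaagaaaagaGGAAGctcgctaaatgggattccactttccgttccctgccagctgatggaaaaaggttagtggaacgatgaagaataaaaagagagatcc

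The PGK1 window holds 3 CTTCC matches beside the Rap1 form and the heat shock element; the TDH3 window holds the Rap1 form, here on the other strand, and 1 AGGGG. TDH2 has 2 CTTCC matches in its window, and GPM1 has 1 with the Rap1 form. A tied window of GPM1, not printed, holds its other CTTCC matches, at -106 and -66 from the start codon. CTTCC had no match in the 600 bases of TDH3, where other forms of the Gcr1 core were not searched. Of the 4 genes with the Rap1 form, PGK1 had a log2 change of 0.01 and was not called, ENO1 had -0.50, TDH3 -0.74 and GPM1 -3.15; whether these letters bear on the changes was not tested. A match describes letters in the reference strain and is not a measured binding site.

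The transcription factor genes of the pathway were all higher in the mutant. GCR1 went from 121 and 123 CPM to 505 and 494 CPM, 4.09-fold higher. TYE7 had 159 and 162 CPM against 376 and 376 CPM, and RAP1 202 and 202 CPM against 359 and 371 CPM, 2.34-fold and 1.81-fold higher. GCR2 moved little, from 132 and 131 CPM to 155 and 155 CPM, 1.18-fold. All 4 were called (edgeR quasi-likelihood adjusted p at most 6.0e-06), where 46.8% of all genes tested were called higher, while the enzyme genes they are known to drive were mostly lower.

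The genes around lower glycolysis went in both directions, as did all genes tested, of which 46.8% were called higher and 46.3% lower. Of 7 genes of upper glycolysis, 4 fell and 3 rose, with a median log2 change of -0.48. The aldolase gene FBA1, which makes the triose phosphates, fell 16.3-fold, from 13001 and 13282 CPM to 765 and 847 CPM, close to the size seen in TDH2. HXK1, a hexokinase repressed by glucose, rose 5.75-fold, from 676 and 696 CPM to 3973 and 3917 CPM. Of 8 pyruvate decarboxylase and alcohol dehydrogenase genes, 4 fell and 4 rose (median -0.58). The most highly read genes of this list, PDC1 and ADH1, were among those that fell. PDC1 fell 7.08-fold, from 10544 and 11398 CPM to 1515 and 1584 CPM. ADH1 fell 6.30-fold, from 13254 and 13265.5 CPM to 1995 and 2217 CPM. PDC5, a minor decarboxylase gene, rose 8.33-fold from 21.5 and 21.0 CPM to 179 and 176 CPM, and ADH3, the mitochondrial alcohol dehydrogenase gene, fell 4.62-fold from 719.5 and 723 CPM to 157 and 156 CPM. In the glycerol branch, which leaves at the triose phosphates, 2 of 4 rose and 2 fell (median -0.44): the phosphatase gene GPP1 fell 8.98-fold, and the dehydrogenase gene GPD1 rose 3.48-fold. Of 4 genes for the bypass reactions of gluconeogenesis, 3 rose and 0 fell (median 0.69), among them the pyruvate carboxylase gene PYC1, 1.92-fold, and PCK1, which encodes phosphoenolpyruvate carboxykinase, 1.66-fold. Each named change had an edgeR quasi-likelihood adjusted p of at most 1.1e-09.

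**Figure D4:**
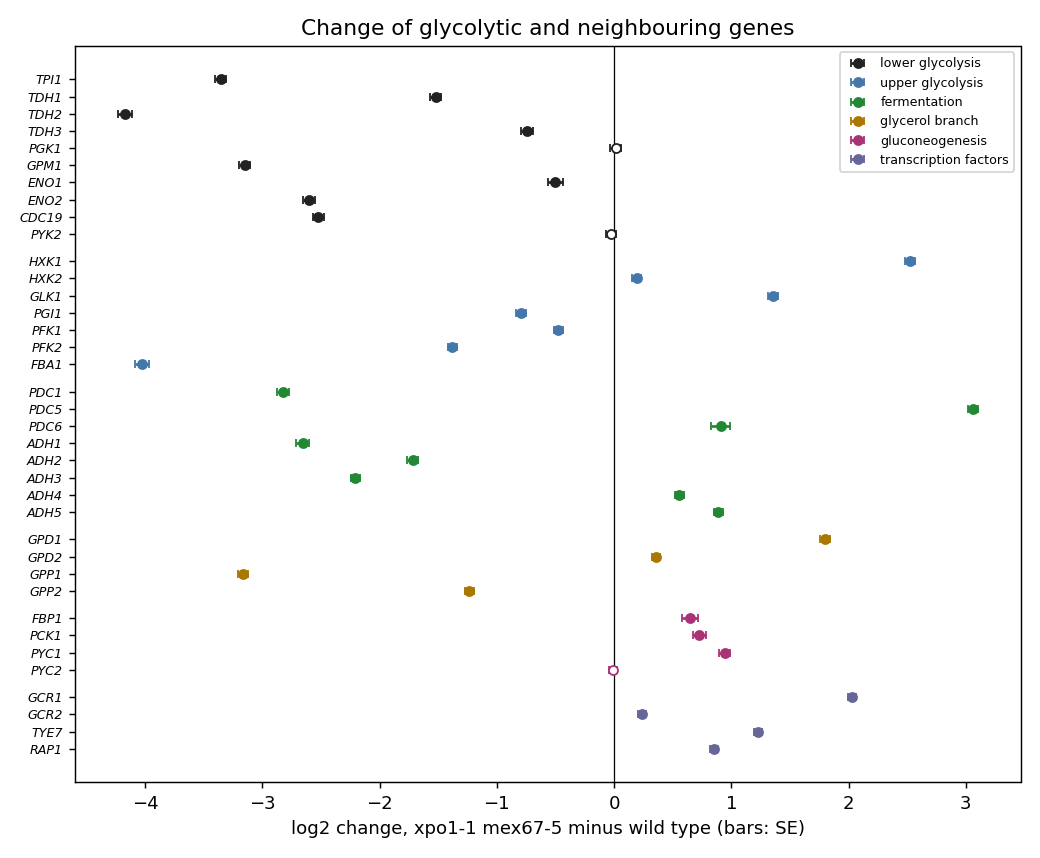
Log2 change, mutant minus wild type, with its SE (bars), for the lower glycolysis genes and 5 other lists of the pathway; filled points were called at an adjusted p under 0.05 and open points were not. TDH2 (-4.17) and FBA1 (-4.03) lie farthest to the left, and PDC5 (3.06) and HXK1 (2.52) farthest to the right.

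Outside these lists, the genes whose pattern over the 4 libraries came closest to the median profile of the 10 members were SCJ1, a chaperone gene of the endoplasmic reticulum, MIS1, a mitochondrial folate enzyme gene, and NTC20, a gene of a splicing complex. Their root mean square distances from that profile were 0.00783, 0.0186 and 0.0234 in log2 CPM over 4 libraries. With so few libraries, likeness mostly means a fall of about the same size: these genes fell between 3.99-fold and 4.11-fold (edgeR quasi-likelihood adjusted p at most 4.6e-15). No member had a fall of that size itself. The nearest were TDH1 (log2 -1.52) and CDC19 (log2 -2.52).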

How the data were processed

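Per the labels' protocols, total RNA was prepared with a TruSeq v2 kit, which selects poly(A) RNA and does not mark strand, and read as single 50 bp reads. The authors deposited raw counts per gene and per intron. Named without a role in the submitters' processing notes are build R64, STAR 2.5, DESeq2 1.8.2, featureCounts and bcl2fastq 2.17. Of 7126 identifiers, 6048 matched a RefSeq locus tag (R64); overlaps with the other 1078 were not checked. Without strand, reads of antisense partners cannot be told apart. Unused columns of per-sample values numbered 0.

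Counts of replicates were further apart than sampling noise gives (chi-square over its degrees of freedom 10.6 and 7.15), so each library was 1 sample. The gene test was that of edgeR 4.0.16 under R 4.3.3, with filterByExpr, TMM (factors 0.994 to 1.01), robust quasi-likelihood F-tests, two-sided, group alone, Benjamini-Hochberg over all genes tested. The SE is the log2 change divided by the square root of F. Isoenzyme differences used limma 3.58.1 on log2 CPM (prior count 2) minus that of a reference isoenzyme, over all genes. Alternatives were other scalings, DESeq2 1.42.0, no filter, a replicate block and leaving out each library. The edgeR test and the limma fit on ratios to TDH3 were tested on simulated counts. Members, lists and tests were chosen with earlier results of these data known. Named genes were all members, CRM1 and MEX67, transcription factors, related frames, the 2 genes of each other list with the smallest adjusted p, and the 3 genes with the most similar profile. PDC1 and ADH1 were added for their high levels. Figures used matplotlib 3.10.9.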

Additional observations from a re-analysis of the deposited data

How the results depend on the processing

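Over 70 results and 657 alternative values, 653 kept their direction and side of the threshold or, for counts, stayed within 1.5 times. The other 4 were changes of sign in PGK1 and PYC2, which were not called in any of these fits. Some of the 653 could not have differed. The TDH genes share a coding length, as do the ENO genes, so their shares per kb repeat their shares by reads. In enolase and pyruvate kinase, the share of either isoenzyme also fixes that of the other. Leaving out 1 library, the log2 change of PGK1 ran from -0.0184 (without mutant replicate 2) to 0.0397 (without mutant replicate 1), and was -0.00267 without wild-type replicate 1; that of PYC2 ran from -0.0423 (without wild-type replicate 1) to 0.0137 (without mutant replicate 1), and was 0.0119 without wild-type replicate 2. Members called lower stayed at 8 under every scaling, filter, DESeq2, the replicate block and each library left out. PYK2 ranged from -0.06 to -0.003 (log2), and neither it nor PGK1 was called by any of the 10 alternatives; ENO1 ranged from -0.62 to -0.40 with an adjusted p of at most 3.3e-04, and TDH3 from -0.77 to -0.73. The isoenzyme difference with the largest adjusted p was TDH1 against TDH3, from -0.82 to -0.73 with at most 0.00338. Where 1 library was left out, the lone sample of its group was assumed to vary like the other group.

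The replicate numbers do not show a pairing: deviations of same-numbered libraries correlated at -0.0264 over genes. With a replicate block, 3075 genes were higher and 3034 lower, against 3070 and 3039 without it. The least read member, PYK2, had at least 2627 reads in each library.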
